A study of Mus musculus with 10 samples.

Results

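The expression of 42 genes that serve DNA replication and cell division was described in luminal and basal cells of the mouse mammary gland. The genes were taken from a list of cell-cycle proliferation genes by symbol, and all 42 were found among the 24594 genes counted. Of these, 19 were grouped as S genes, which serve S phase, when DNA is copied, or prepare for it. The other 23 were grouped as G2/M genes, which serve G2 and mitosis, when chromosomes are separated. A further entry of the list, "Foxm1-free", is not a gene symbol and was left out.

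Bulk RNA-seq was carried out on mammary epithelial cells of wild type C57BL/6J virgin mice. Flow cytometry with antibodies to EpCAM and CD49f was used to sort luminal from basal cells, and 5 libraries of each cell type were compared. Luminal cells line the ducts and basal cells form the contractile layer around them. The study used adult mice, and the labels give neither the age nor the hormonal stage of these animals. For each of the 10 libraries the title and the cell type label contradict each other, and the groups follow the label. All 10 luminal marker genes were higher in the libraries labelled luminal and all 8 basal marker genes were higher in those labelled basal. Library totals ranged from 13203146 to 17998165 counts.

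In a dividing cell, cyclins E1 and E2 with the kinase Cdk2 start S phase, and the loading factors Cdc6 and Cdt1 place the Mcm2 to Mcm7 helicase on DNA before it is copied. Cyclins B1 and B2 with the kinase Cdk1 then drive entry into mitosis, where kinesins, centromere proteins and the spindle checkpoint handle the chromosomes. Most S-phase genes are switched on by E2F factors, whereas many mitotic genes carry a CHR element that is read by the DREAM and B-Myb–FoxM1 complexes. In the resting adult gland only a minority of epithelial cells divide, and their number is known to change with the estrous cycle.

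Promoter sequences are shown for 3 genes of each phase, because they hold letters searched for in all members. Among the S genes shown, Mcm6 was higher in luminal cells, Cdk2 was higher in basal cells and Rrm1 was not called. The windows span 250 bases before to 50 bases after each start (RefSeq, GRCm38.p6) and were given for 17 of 19 S genes and 18 of 23 G2/M genes. The letters TTCCCGC or TTGGCGC, which E2F factors recognise, were searched on both strands and were found for 10 of the 17 S genes and 3 of the 18 G2/M genes, against 6.81% of all 32851 promoters of the same length. The CHR letters TTTGAA, again on both strands, were found for 12 of the 18 G2/M genes and 2 of the 17 S genes, against 17.9% of all promoters. All 12 of those G2/M genes also held CCAAT, and 6.95% of all promoters held both. Members were counted as genes, with a match in any window, and the shares of all promoters as single windows. Only Mcm7 had more than a single window, and each of its windows held the E2F letters. A match describes the letters and is not evidence of binding.

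The stretches lie before the start and outside annotated exons, are written 5′ to 3′ on the strand of the gene, and carry the E2F letters in capitals. They are Mcm6 (chr1:128359706-128359835, minus strand), Cdk2 (chr10:128705052-128705179, minus strand) and Rrm1 (chr7:102441565-102441694, plus strand).
Mcm6: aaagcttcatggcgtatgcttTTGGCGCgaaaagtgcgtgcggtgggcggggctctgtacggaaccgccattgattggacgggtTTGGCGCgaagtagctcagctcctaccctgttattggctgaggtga
Cdk2: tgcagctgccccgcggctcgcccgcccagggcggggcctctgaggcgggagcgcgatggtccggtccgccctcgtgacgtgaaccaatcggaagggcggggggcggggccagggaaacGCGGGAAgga
Rrm1: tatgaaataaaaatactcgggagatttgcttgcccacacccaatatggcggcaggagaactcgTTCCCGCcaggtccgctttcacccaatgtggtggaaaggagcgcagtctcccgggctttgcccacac

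The mitotic genes Mki67 (chr7:135716451-135716509), Top2a (chr11:99024200-99024319) and Cdk1 (chr10:69352939-69353042), all on the minus strand, carry the CHR letters in capitals and are among the genes with the widest spread among libraries described below. The windows of Mki67 and Cdk1 hold the E2F letters as well, outside the stretches shown, so these letters are not particular to the S genes.
Mki67: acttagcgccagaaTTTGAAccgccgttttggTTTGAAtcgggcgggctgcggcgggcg
Top2a: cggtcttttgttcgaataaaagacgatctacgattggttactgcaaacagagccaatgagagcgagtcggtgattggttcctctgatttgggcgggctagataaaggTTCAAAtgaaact
Cdk1: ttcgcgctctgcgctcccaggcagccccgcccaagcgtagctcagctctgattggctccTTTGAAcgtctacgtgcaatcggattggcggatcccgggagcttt

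In the comparison of luminal with basal cells, the counts below describe the listed genes, and lists of further genes of the same phases gave other counts. No test of a difference between the phases was made. Of the 17 S genes tested, 7 (41.2%) were higher in basal cells, beside 31.2% of all genes tested, and 3 in luminal cells. The basal ones were led by the transcription factor E2f1, cyclin E2 (Ccne2) and the helicase subunit Mcm7. Of the 20 G2/M genes tested, 10 (50%) were higher in luminal cells, beside 33.6% of all genes tested, and none in basal cells. The luminal ones were led by the mitotic kinase Aurka, cyclin B2 (Ccnb2) and the checkpoint protein Bub1b. Without luminal replicate 2 the difference in Ccnb2 fell from 2.14 to 1.33 on the log2 scale and no longer passed the test. Without both libraries of replicate 2 it was 1.67 and passed narrowly. The proliferation marker Mki67 and the mitotic topoisomerase Top2a did not differ beyond the spread among libraries.

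Levels are given as CPM, the usual depth-scaled counts, on library totals adjusted by TMM factors, and fold changes as luminal over basal on the log2 scale with their standard error (SE). Of the 42 genes, 37 had enough counts to be tested, 17 S and 20 G2/M genes. The quasi-likelihood test of edgeR was run over all 14609 genes with enough counts, and a gene was called different when its adjusted p was below 0.05. Of all these genes, luminal cells were higher for 33.6% and basal cells for 31.2%. Among the S genes, 7 of 17 (41.2%) were higher in basal cells, 3 (17.6%) were higher in luminal cells and 7 were not called. Among the G2/M genes, 10 of 20 were higher in luminal cells, none was higher in basal cells and 10 were not called. With an unadjusted p under 0.05 the edgeR count of G2/M genes higher in basal cells was also 0, as were the counts with DESeq2 and limma voom. The median log2 fold change was -0.48 for the S genes and 0.88 for the G2/M genes, beside 0.05 for all genes tested. Scaling by library totals alone moved that last median to 0.24 and scaling by upper-quartile factors to 0.17. In bulk samples a lower share of dividing cells and less RNA of a gene per cell cannot be told apart.

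**Figure D1:**
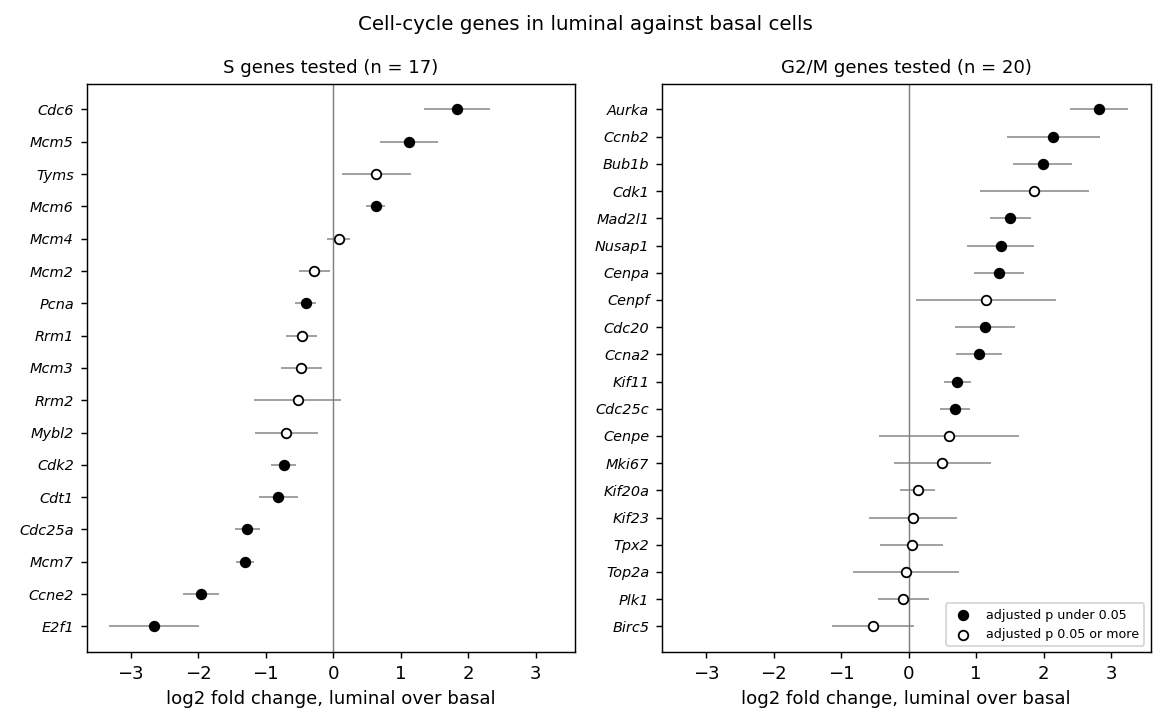
Log2 fold change, luminal over basal, of the 17 S genes (left) and 20 G2/M genes (right) tested, with bars of 1 SE; filled points have an adjusted p under 0.05. The called S genes lie on both sides of 0, from E2f1 at -2.66 to Cdc6 at 1.83, and all 10 called G2/M genes lie to the right.

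The luminal library of replicate 2 stood apart for several mitotic genes, and the basal one was often high as well. The luminal library of replicate 2 had the highest value of its cell type for 12 of the 20 G2/M genes, although it had the highest value for 17.7% of all genes tested. The basal library of replicate 2 was highest for 9 of the 20, against 17.1% of all genes, and that of replicate 3 for 6 of the 20, against 16.6%. For the 17 S genes the corresponding numbers were 3 and 4. When both libraries of replicate 2 were left out, 7 of the 18 G2/M genes then tested were higher in luminal cells and none was higher in basal cells, with a median log2 fold change of 0.79, and 6 S genes were higher in basal and 2 in luminal cells. In that fit 29.5% of all genes were higher in luminal and 28.1% were higher in basal cells.

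Of the genes that start S phase, the 3 with enough counts, Ccne2, Cdk2 and Cdc25a, were higher in basal cells. Cyclin E2, which activates Cdk2, reached 2.001, 2.84, 3.19, 3.51 and 4.44 CPM in luminal replicates 1 to 5 and 16.2, 11.5, 7.74, 13.2 and 13.6 CPM in basal replicates 1 to 5. The groups did not overlap, with a log2 fold change of -1.96 (SE 0.27, edgeR adjusted p = 1.64e-05). Of its 3495 exon bases, 609 overlap the neighbouring gene Ints8, and the treatment of strand in counting is unknown. Cdc25a, the phosphatase that frees Cdk2 from inhibition, was measured at 10.3, 7.27, 10.1, 6.49 and 11.3 CPM in luminal and at 20.6, 23.3, 23.3, 22.8 and 19.9 CPM in basal libraries. Every basal library was above every luminal library (log2 fold change -1.27, SE 0.18, adjusted p = 2.94e-05). Cdk2 itself was 23.02 ± 6.27 CPM (SD, n = 5) in luminal and 38.4 ± 4.50 CPM in basal cells, with a log2 fold change of -0.74 (SE 0.18, adjusted p = 0.00255). It was higher in basal cells in 5 of 5 same-numbered pairs, although luminal replicate 3 with 33.1 CPM exceeded basal replicate 5 with 31.1 CPM. Cyclin E1 (Ccne1), the close relative of cyclin E2, was too low to be tested, with 0 to 6 counts per luminal and 4 to 20 counts per basal library.

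The factors that load and form the replicative helicase were split between the cell types. Cdc6, a loading factor, was found at 1.56, 1.69, 1.47, 3.21 and 1.02 CPM in luminal and at 0.25, 0.34, 0.54, 0.38 and 0.96 CPM in basal libraries. Its groups did not overlap, with a log2 fold change of 1.83 (SE 0.49, adjusted p = 0.0045). The call was lost with the replicate block when both libraries of replicate 2 were left out (adjusted p = 0.0619), where the log2 fold change was 1.76. Cdt1, its partner in loading, went the other way, with 16.6, 8.32, 12.6, 4.12 and 9.71 CPM in luminal and 17.6, 15.8, 14.7, 22.5 and 20.02 CPM in basal libraries. The luminal libraries of Cdt1 covered a 4-fold range and overlapped the basal ones through replicate 1 (log2 fold change -0.82, SE 0.29, adjusted p = 0.0229). This call was lost with library totals (log2 fold change -0.61, adjusted p = 0.0886), without luminal replicate 2 (adjusted p = 0.0539), without basal replicate 4 (0.0501), and without both libraries of replicate 2 (0.0641, and 0.0683 with the block).

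Of the 6 helicase subunits, 1 was higher in basal cells, 2 were higher in luminal cells and 3 were not called. Mcm7 was found at 22.1, 17.2, 19.997, 20.9 and 20.2 CPM in luminal and at 49.8, 48.9, 45.7, 48.0 and 56.4 CPM in basal libraries, with the smallest SE of the members tested (log2 fold change -1.31, SE 0.13, adjusted p = 7.31e-07). The Mcm7 locus shares 557 of 4426 exon bases with Ap4m1, Cops6 and the microRNA genes Mir25 and Mir93. Mcm6 showed the opposite order, with 44.4, 42.8, 37.6, 38.5 and 43.6 CPM in luminal and 22.8, 25.9, 23.3, 35.0 and 27.2 CPM in basal libraries. These groups did not overlap either (log2 fold change 0.62, SE 0.15, adjusted p = 0.00188). Mcm5 was found at 4.57, 6.53, 4.23, 0.92 and 5.52 CPM in luminal and at 1.93, 1.77, 3.02, 1.94 and 1.44 CPM in basal libraries. Luminal replicate 4 lay below all basal libraries, and the difference was 1.11 on the log2 scale (SE 0.43, adjusted p = 0.0343).

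The Mcm5 call was lost when same-numbered libraries were treated as pairs from the same animal (adjusted p = 0.106), with no filter (0.0515), with limma voom (0.0919), without both libraries of replicate 2 (0.157) and when any 1 library other than luminal replicate 4 and basal replicate 3 was left out (adjusted p from 0.0515 to 0.0903). Mcm2 was not called, with 18.2 ± 6.13 CPM in luminal and 22.1 ± 5.64 CPM in basal cells (log2 fold change -0.28, SE 0.23, adjusted p = 0.302). Mcm3 was found at 4.13, 7.06, 3.80, 4.12 and 3.30 CPM in luminal and at 3.68, 5.94, 6.96, 9.57 and 5.15 CPM in basal libraries (adjusted p = 0.181). Its luminal replicate 2 was well above the other luminal libraries. Mcm4 was found at 21.95, 15.8, 13.4, 14.7 and 14.6 CPM in luminal and at 15.3, 13.4, 15.01, 16.1 and 16.4 CPM in basal libraries (adjusted p = 0.706), with luminal replicate 1 the only library apart.

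Among the genes of the replication fork and of nucleotide supply, Pcna alone was called. Pcna, the sliding clamp of the DNA polymerases, was the member with the highest level per kilobase of exon in both cell types (14.1 CPM per kb in luminal and 18.8 CPM per kb in basal cells). Its libraries reached 33.1, 32.4, 31.2, 33.4 and 39.3 CPM in luminal and 41.0, 35.5, 43.2, 60.2 and 45.2 CPM in basal cells. The difference was small (log2 fold change -0.41, SE 0.15, adjusted p = 0.0297), with overlap between luminal replicate 5 and basal replicate 2, and pseudogenes of Pcna could share its reads. The call was lost under scaling by library totals (log2 fold change -0.22, adjusted p = 0.228), under upper-quartile factors (adjusted p = 0.113), and without luminal replicate 1, 2 or 3 or basal replicate 4 or 5 (adjusted p from 0.051 to 0.0728). Rrm1, the large subunit of ribonucleotide reductase, reached 13.8, 12.96, 12.5, 5.73 and 13.6 CPM in luminal and 18.1, 13.6, 15.2, 19.4 and 14.9 CPM in basal libraries (adjusted p = 0.0834). Apart from the low luminal replicate 4, the ranges of Rrm1 met at 13.6 to 13.8 CPM. The small subunit Rrm2 was near 1 CPM in both cell types (adjusted p = 0.491). Thymidylate synthase (Tyms) reached 3.32 ± 2.01 CPM in luminal and 2.13 ± 0.55 CPM in basal cells (adjusted p = 0.286). Without luminal replicate 1, which held 0.38 CPM, Tyms was called higher in luminal cells (log2 fold change 0.94, adjusted p = 0.0313).

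E2f1 was the only called gene among the transcription factors of the S list. E2f1, an activator of S-phase genes, was found at 1.13, 3.42, 0.86, 0 and 0.25 CPM in luminal and at 6.92, 9.28, 8.28, 8.94 and 3.60 CPM in basal libraries. Its groups did not overlap, although luminal replicate 2 came close to basal replicate 5. The log2 fold change of E2f1, -2.66 (SE 0.67, adjusted p = 0.00304), was the largest of the S genes tested. Without luminal replicate 2 this log2 fold change was -3.66. E2f8, a repressor of the same family, had 3, 4, 0, 0 and 0 counts in luminal and 19, 31, 11, 0 and 6 counts in basal libraries and did not pass the filter on low counts. When no filter was applied, its log2 fold change was -3.38 (adjusted p = 0.0199), whereas Ccne1 (-2.14, adjusted p = 0.0702) was not called. Mybl2, which encodes B-Myb and links the S and mitotic programmes, reached 1.52 ± 1.05 CPM in luminal and 2.46 ± 0.78 CPM in basal cells (adjusted p = 0.213). Without luminal replicate 3, which held 3.19 CPM, it was called higher in basal cells (log2 fold change -1.17, adjusted p = 0.0425).

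Of the S genes tested, 2 had all luminal libraries above all basal ones (Cdc6 and Mcm6), and 4 had all basal libraries above (Ccne2, Cdc25a, Mcm7 and E2f1). Among all genes tested, 24.7% had the luminal and 25.3% the basal libraries wholly above. For the S genes the share with basal libraries above was near that of all genes and the share with luminal libraries above was lower, with no test of either.

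Of the cyclins and the kinase of mitotic entry, Ccnb2 and Ccna2 were called higher in luminal cells and Cdk1 was not, and luminal replicate 2 was the highest library for all 3. Cyclin B2 reached 1.00, 6.58, 1.10, 2.21 and 1.21 CPM in luminal and 0.25, 1.02, 1.08, 0.13 and 0.30 CPM in basal libraries. Its log2 fold change was 2.14 (SE 0.69, adjusted p = 0.0143), and without luminal replicate 2 it was 1.33 (adjusted p = 0.0796). Without both libraries of replicate 2 the log2 fold change of Ccnb2 was 1.67 and narrowly called (adjusted p = 0.0495). With the block added to that fit the call was lost (1.87, adjusted p = 0.0735). Cdk1 showed the same peak, with 1.13, 6.43, 0.49, 0.69 and 1.52 CPM in luminal and 0, 0.89, 0.93, 0.75 and 0.30 CPM in basal libraries. Cdk1 was not called (log2 fold change 1.86, SE 0.81, adjusted p = 0.0568), and without both libraries of replicate 2 its log2 fold change was 0.97 (adjusted p = 0.32). It did pass with upper-quartile factors (adjusted p = 0.0455), library totals (0.0384) and DESeq2 (0.0388), and in edgeR without luminal replicate 3 (0.0395) or 4 (0.036). Cyclin A2 (Ccna2), which acts in both S and G2, was 7.94 ± 1.68 CPM in luminal and 3.85 ± 2.07 CPM in basal cells (log2 fold change 1.05, SE 0.34, adjusted p = 0.0143). It was higher in luminal cells in 5 of 5 pairs, and 510 of its 4083 exon bases overlap Exosc9. Cyclin B1 (Ccnb1) had 0 to 6 counts in luminal and 2 to 19 counts in basal libraries and was not tested.

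Cdc25c, the phosphatase that activates Cdk1, was 12.7 ± 3.63 CPM in luminal and 7.92 ± 1.12 CPM in basal cells (log2 fold change 0.69, SE 0.23, adjusted p = 0.0157). For Cdc25c, 623 of 4919 exon bases overlap Gm3550. Cdc20, which activates the anaphase-promoting complex, was 3.09 ± 0.90 CPM in luminal and 1.42 ± 0.83 CPM in basal cells (log2 fold change 1.13, SE 0.45, adjusted p = 0.0398). Both were higher in luminal cells in 5 of 5 pairs. The Cdc20 call was lost with pairing by animal (adjusted p = 0.0601), with no filter (0.0655) and without luminal replicate 1, 2, 3 or 5 or basal replicate 1, 4 or 5 (adjusted p from 0.0561 to 0.0932). Without both libraries of replicate 2, the log2 fold changes stayed close to these values while the calls were lost, at 0.97 for Ccna2 (adjusted p = 0.0591), 0.61 for Cdc25c (0.0563) and 1.17 for Cdc20 (0.0842). With the block added, Ccna2 was called again (1.12, adjusted p = 0.0355).

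**Figure D2:**
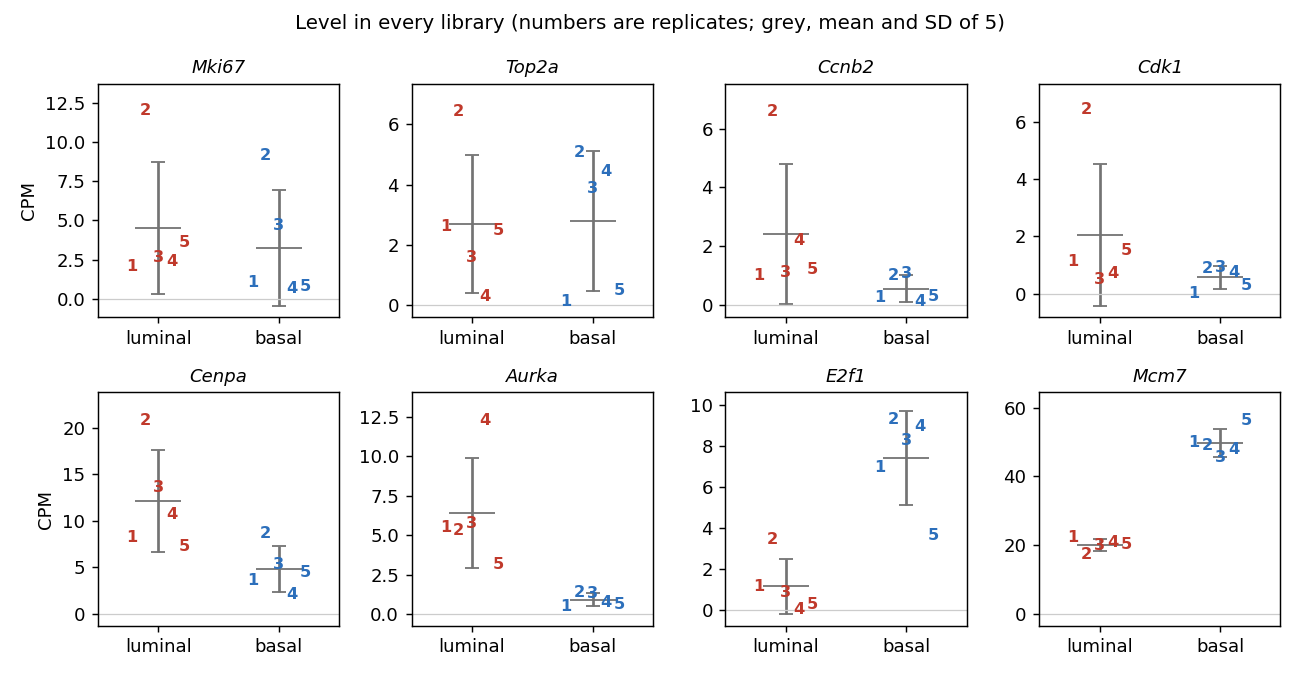
Level in CPM of 6 G2/M genes and 2 S genes (E2f1 and Mcm7) in each library; digits mark the replicate, grey lines the mean and SD of 5 libraries. Replicate 2 is the highest luminal library for Mki67, Top2a, Ccnb2, Cdk1 and Cenpa, whereas for Aurka it is replicate 4, and Mcm7 shows 2 tight and separate groups.

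Of the mitotic kinases and spindle checkpoint genes tested, Aurka, Bub1b and Mad2l1 were called higher in luminal cells. Aurka, a kinase of centrosome maturation and spindle assembly, was found at 5.50, 5.32, 5.77, 12.3 and 3.11 CPM in luminal and at 0.50, 1.36, 1.32, 0.75 and 0.60 CPM in basal libraries. Its groups were well apart, and the log2 fold change of 2.82 (SE 0.43, adjusted p = 5.32e-05) was the largest among the members tested. Bub1b, a kinase-related part of the checkpoint, reached 18.4, 8.64, 10.3, 3.36 and 8.82 CPM in luminal and 3.68, 3.002, 3.25, 0.88 and 1.74 CPM in basal libraries. Replicate 4 was lowest in both cell types, and luminal replicate 4 fell below basal replicate 1. The log2 fold change of Bub1b was 1.99 (SE 0.44, adjusted p = 0.00119). Mad2l1, which holds Cdc20 inactive until chromosomes are attached, was found at 8.44, 4.27, 6.56, 11.5 and 7.87 CPM in luminal and at 1.87, 2.18, 3.25, 3.38 and 2.88 CPM in basal libraries. All luminal libraries were above all basal ones (log2 fold change 1.51, SE 0.30, adjusted p = 0.000532). Aurka, Bub1b and Mad2l1 remained called in every alternative that tested them.

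Among the other mitotic kinases, Plk1 was not called, and Aurkb and Bub1 were too low to be tested. Plk1, which acts from mitotic entry to exit, was 1.22 ± 0.20 CPM in luminal and 1.29 ± 0.39 CPM in basal cells (log2 fold change -0.08, SE 0.38, adjusted p = 0.869). The kinase Aurkb had 5, 70, 15, 0 and 13 counts in luminal and 0, 10, 7, 8 and 2 counts in basal libraries. The checkpoint kinase Bub1 had 3, 44, 3, 9 and 3 counts in luminal and 0, 25, 9, 5 and 3 counts in basal libraries. Both Aurkb and Bub1 were dropped by the filter. In both, the luminal and the basal library of replicate 2 had the highest count of its cell type. With no filter, the log2 fold change was 1.59 for Aurkb (edgeR adjusted p = 0.192) and 0.26 for Bub1 (0.843). Birc5, the partner of Aurkb in the chromosomal passenger complex, was also highest in replicate 2 of both cell types, at 2.26 and 2.05 CPM (log2 fold change -0.53, SE 0.61, adjusted p = 0.466).

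Of the centromere proteins, Cenpa, the histone variant that marks the centromere, was 12.1 ± 5.45 CPM in luminal and 4.81 ± 2.44 CPM in basal cells. It was higher in luminal cells in 5 of 5 pairs (log2 fold change 1.34, SE 0.37, adjusted p = 0.00569). The kinetochore proteins Cenpe and Cenpf were near or below 1 CPM on average in both cell types and varied widely. Cenpf had 2, 61, 11, 17 and 1 counts in luminal and 0, 14, 17, 0 and 4 counts in basal libraries (log2 fold change 1.15, SE 1.04, adjusted p = 0.348). Over the alternatives the log2 fold change of Cenpf ran from 0.14, without luminal replicate 2, to 1.86, without basal replicate 3. Cenpe was not called either (log2 fold change 0.59, SE 1.04, adjusted p = 0.636).

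Among the motor and spindle proteins, Kif11, the motor that pushes spindle poles apart, had the highest level per kilobase of the G2/M genes in both cell types (3.28 CPM per kb in luminal and 1.99 CPM per kb in basal cells). It reached 16.3, 29.3, 20.7, 33.1 and 22.97 CPM in luminal and 14.1, 13.9, 13.5, 18.4 and 14.4 CPM in basal libraries. The groups overlapped only through luminal replicate 1 and basal replicate 4 (log2 fold change 0.72, SE 0.20, adjusted p = 0.00522). Nusap1, which bundles spindle microtubules, reached 0.75, 2.84, 1.35, 3.21 and 2.98 CPM in luminal and 0.50, 1.64, 0.77, 0.63 and 0.78 CPM in basal libraries. Its call (log2 fold change 1.36, SE 0.49, adjusted p = 0.0254) was lost without luminal replicate 2, 4 or 5 or basal replicate 1, 3, 4 or 5 (adjusted p from 0.0536 to 0.0648). The cytokinesis motors Kif20a (log2 fold change 0.13, SE 0.26, adjusted p = 0.667) and Kif23 (0.07, SE 0.65, adjusted p = 0.936) and the spindle assembly factor Tpx2 (0.04, SE 0.47, adjusted p = 0.942) were not called. For Kif20a, 1271 of 4338 exon bases overlap Cdc23.

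Mki67, whose protein coats mitotic chromosomes and which is used as a marker of dividing cells, was found at 2.06, 12.0, 2.64, 2.37 and 3.62 CPM in luminal and at 1.06, 9.14, 4.64, 0.63 and 0.78 CPM in basal libraries. Replicate 2 was highest in both cell types and the groups overlapped (log2 fold change 0.50, SE 0.72, adjusted p = 0.559). Without luminal replicate 2 the direction turned (log2 fold change -0.26), and without both libraries of replicate 2 it was 0.61 (SE 0.62, adjusted p = 0.421). Top2a, which untangles sister chromatids, reached 2.63, 6.43, 1.59, 0.31 and 2.47 CPM in luminal and 0.13, 5.05, 3.87, 4.44 and 0.48 CPM in basal libraries. Its basal libraries fell into 3 high and 2 low ones, and the luminal libraries lay across the same range (log2 fold change -0.04, SE 0.78, adjusted p = 0.97).

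Of the G2/M genes tested, 2 had all luminal libraries above all basal ones (Aurka and Mad2l1) and none had all basal libraries above, beside 24.7% and 25.3% of all genes tested. The share of G2/M genes called higher in luminal cells thus lay above that of all genes, and the share without overlap below it, with no test of either difference. With the 3 low genes Ccnb1, Aurkb and Bub1 included and no filter, 9 of 23 G2/M genes were higher in luminal cells and none in basal cells, beside 24.1% and 24.7% of all 20612 genes in that fit. All 3 added genes were not called (adjusted p from 0.125 to 0.843).

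**Figure D3:**
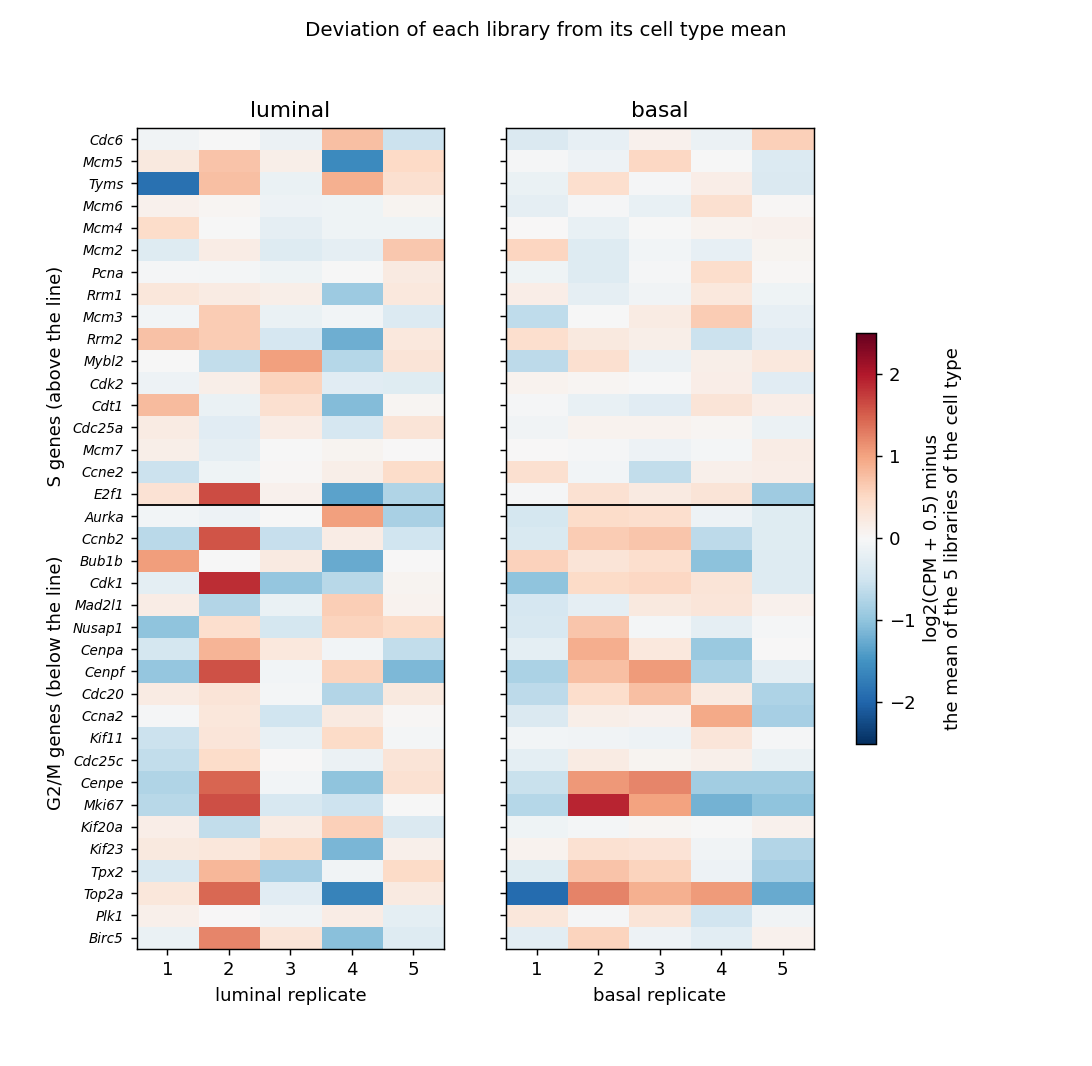
Deviation of each library from the mean of its cell type, as log2(CPM + 0.5), for the S genes (above the line) and the G2/M genes (below), ordered by fold change. The column of replicate 2 is red for many G2/M genes in both cell types, among them Mki67, Top2a, Cdk1, Ccnb2, Cenpe and Cenpf, while the S genes show no such column apart from single genes such as E2f1.

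The spread among libraries of a cell type was larger for the G2/M genes. The biological coefficient of variation (BCV), the replicate spread that remains after counting noise in the edgeR fit, had a median of 0.28 for the S genes, 0.47 for the G2/M genes and 0.24 for all genes tested. Low genes vary more, so each BCV was set against the trend over all genes at the same level. The median ratio to the trend was 0.93 for the S genes, 1.11 for the G2/M genes and 0.92 for all genes. The ratio exceeded 1.5 for 5 of the 20 G2/M genes and 1 of the 17 S genes, beside 5.07% of all genes. The 5 were Cenpe (2.29), Cenpf (2.25), Top2a (1.99), Mki67 (1.97) and Cdk1 (1.67), and the S gene was E2f1 (1.88). Mki67 had a coefficient of variation of 92.9% in luminal and 114% in basal cells, where counting alone would give 11.3% and 14.6%. Mcm7, at the other end, had a BCV of 0.16, or 0.69 of the trend. In all, 13 of the 20 G2/M genes and 7 of the 17 S genes lay above the trend, beside 35.6% of all genes. Among the other G2/M genes, Ccnb2 (1.42), Bub1b (1.38), Cenpa (1.31) and Birc5 (1.22) were above it, and Plk1 (0.65), Mad2l1 (0.89) and Nusap1 (0.99) were below it.

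**Figure D4:**
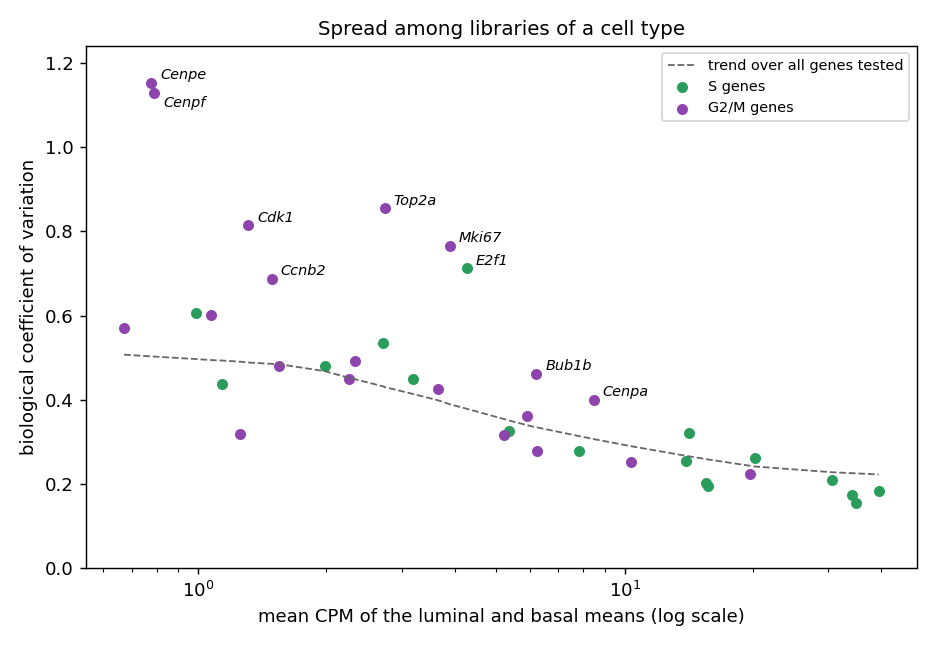
Biological coefficient of variation of each gene tested against its mean level in CPM (log scale), with the trend over all genes as a dashed line. Cenpe, Cenpf, Top2a, Mki67, Cdk1 and the S gene E2f1 have a ratio to the trend over 1.5, and most S genes lie close to it.

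The summed level of the 19 S genes was 213.9, 210.5, 204.1, 174.9 and 219.5 CPM in luminal and 292.4, 272.4, 272.9, 326.0 and 284.8 CPM in basal libraries. Every basal library was above every luminal one, and Mcm6, Pcna, Cdk2 and Mcm7 made up 57.9% of the luminal and 55.2% of the basal sum. The summed level of the 23 G2/M genes was 95.4, 157.7, 98.8, 116.9 and 101.1 CPM in luminal and 46.3, 81.1, 71.3, 60.6 and 46.6 CPM in basal libraries. Here every luminal library was above every basal one, and 4 genes again made up much of the sum, with Kif11, Cdc25c, Cenpa and Bub1b at 52% of the luminal and Kif11, Cdc25c, Kif20a and Cenpa at 54.8% of the basal sum. Replicate 2 was the highest in both cell types. Luminal replicate 4 had the lowest S sum of its cell type but the second highest G2/M sum. Basal replicate 4 had the highest S sum of all libraries.

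**Figure D5:**
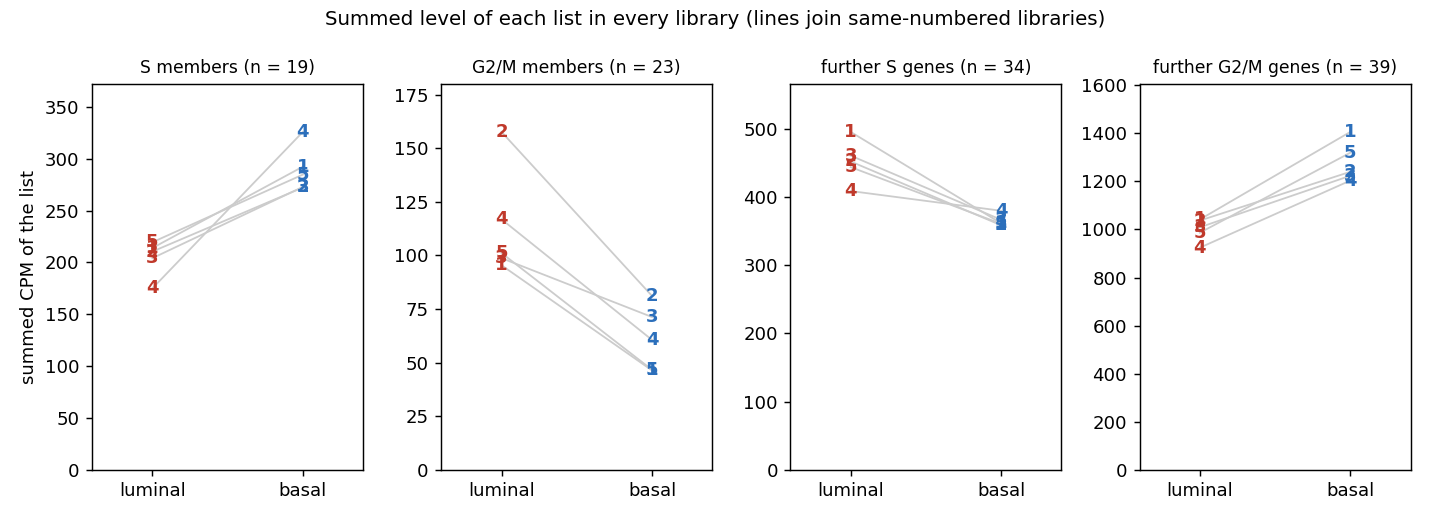
Summed CPM of the 19 S genes, the 23 G2/M genes and the lists of further S and G2/M genes in each library (digits are replicates, lines join same-numbered libraries). The S and G2/M genes run in opposite directions between the cell types, and the sums of the further lists run opposite to those of the same phase. For the further G2/M genes Tmpo, Ctcf, Hjurp and Anp32e make up 45.9% of the basal sum.

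Further genes of the same phases gave other counts. Of 34 further S genes, 30 were tested, with 13 (43.3%) higher in luminal cells and 6 higher in basal cells, against 33.6% and 31.2% of all genes tested (median log2 fold change 0.35). The largest luminal differences were in Gins2 (1.95, SE 0.19, adjusted p = 5.12e-07), a subunit of the GINS part of the helicase, Rfc4 (1.84, SE 0.32, adjusted p = 0.000159), a subunit of the clamp loader of Pcna, and Uhrf1 (1.81, SE 0.40, adjusted p = 0.00109), which maintains DNA methylation after replication. Gins2 alone reached 45.6 to 57.3 CPM in luminal and 9.21 to 19.4 CPM in basal libraries. The largest basal differences were in Cdca7 (-2.63, SE 0.20, adjusted p = 4.41e-08), a target of Myc and E2F, the histone chaperone Nasp (-1.19, SE 0.15, adjusted p = 7.83e-06) and the uracil glycosylase Ung (-0.998, SE 0.30, adjusted p = 0.00941).

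Of 39 further G2/M genes, 30 were tested, with 7 (23.3%) higher in luminal cells and 9 higher in basal cells, so that neither share exceeded that of all genes (15 positive and 15 negative values, median log2 fold change 0.02). Psrc1, a spindle protein, had 11.1 to 24.7 CPM in luminal and 0.56 to 2.93 CPM in basal libraries (log2 fold change 3.82, SE 0.42, adjusted p = 2.07e-06). Ube2c, the ubiquitin-conjugating enzyme of the anaphase-promoting complex (2.01, SE 0.54, adjusted p = 0.00469), and the kinesin Kif2c (1.69, SE 0.63, adjusted p = 0.0287) followed. Ube2c was highest in replicate 2 of luminal cells, at 4.21 CPM. The ubiquitin ligase G2e3 (-1.30, SE 0.20, adjusted p = 6.23e-05), the histone chaperone Anp32e (-1.23, SE 0.15, adjusted p = 8e-06) and the microtubule polymerase Ckap5 (-1.12, SE 0.14, adjusted p = 8.38e-06) were higher in basal cells. These 3 genes reached 61.1 to 131 CPM in basal libraries, well above the levels of the G2/M genes described above.

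Of 19 transcription regulators of the cell cycle, 17 were tested, with 3 (17.6%) higher in luminal cells and 7 (41.2%) higher in basal cells, beside the 33.6% and 31.2% of all genes. The luminal ones were Lin9 (1.43, SE 0.20, adjusted p = 1.95e-05), a core subunit of the DREAM and B-Myb complexes, and the pocket proteins Rbl1 (0.89, SE 0.14, adjusted p = 7.64e-05) and Rb1 (0.64, SE 0.13, adjusted p = 0.000492), which restrain E2F factors. Among the other Lin genes of these complexes, Lin54 was higher in basal cells (-1.01, SE 0.19, adjusted p = 0.000302). For Lin54 every basal library was above every luminal one, whereas Lin37 (adjusted p = 0.444) and Lin52 (0.225) were not called. Myc, a growth-promoting factor, had 37.6 to 61.3 CPM in luminal and 268 to 427 CPM in basal libraries (-2.82, SE 0.18, adjusted p = 8.77e-09). Mycn, a relative of Myc, had at most 2 counts in a luminal library and 1.30 to 2.04 CPM in basal libraries. Its basal mean of 1.76 CPM was at least 9.27-fold higher than in luminal cells, taking the mean of floors of 3 counts per luminal library. E2f6, a repressing E2F, was also higher in basal cells (-1.21, SE 0.18, adjusted p = 3.1e-05). So were E2f3 (-1.21, SE 0.13, adjusted p = 1.8e-06), Tfdp1 (-1.13, SE 0.16, adjusted p = 1.94e-05) and E2f4 (-0.46, SE 0.14, adjusted p = 0.0108). Foxm1, the activator of mitotic genes, reached 0.99 ± 0.35 CPM in luminal and 1.75 ± 0.84 CPM in basal cells and was not called (-0.81, SE 0.46, adjusted p = 0.135). Its basal maximum was in replicate 2, at 2.66 CPM, whereas its luminal maximum was in replicate 5.

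Markers of other cells were examined in the same libraries. The summed level of 14 immune genes ranged from 23.3 to 31.2 CPM in luminal and from 48.7 to 78.9 CPM in basal libraries, with 3 of the 5 tested higher in basal cells and 2 in luminal cells. The 3 basal ones, Cd68, Cd74 and Csf1r, are genes of macrophages and antigen-presenting cells and made up most of the basal sum. The sorting protocol of the study also stained cells with lineage antibodies, those to CD31 and CD45 among them. Cd68 was 8.28 ± 2.08 CPM (SD, n = 5) in luminal and 29.7 ± 7.01 CPM in basal cells, Cd74 was 2.62 ± 1.19 and 20.7 ± 7.89 CPM, and Csf1r was 9.32 ± 2.29 and 14.8 ± 2.18 CPM. The 2 luminal ones were Cd52 and Lyz2, both below 7 CPM in every library. The pan-leukocyte gene Ptprc reached at most 0.38 CPM. The T cell genes Cd3e and Cd3g and the killer cell gene Nkg7 were at 0 in all libraries, and the B cell gene Cd79a was at 0 in all luminal ones. The sums of 7 endothelial genes were 2.69 to 7.10 CPM in luminal and 11.1 to 19.2 CPM in basal libraries, with 3 of 5 tested higher in basal cells. Those of 7 fibroblast genes were 27.9 to 118 CPM and 37.8 to 56.9 CPM. Among them 1 gene was higher in luminal cells (Dcn) and 2 in basal cells (Pdgfra and Pdgfrb). Luminal replicate 1 held 95.1 CPM of Dcn. The sums of the erythroid genes counted were 4.74 to 18.4 CPM in luminal and 0.61 to 2.28 CPM in basal libraries, with Hba-a1 higher in luminal cells. Sums of 11 genes of the dissociation stress response were 5443 to 7362 CPM in luminal and 4923 to 9732 CPM in basal libraries, with 8 genes higher in basal cells and 2 in luminal cells. Luminal replicate 2 was within the range of the other luminal libraries for the immune, fibroblast and stress sums and lowest for the endothelial and erythroid sums. Basal replicate 2 was likewise within the range of the others for the immune, fibroblast and stress sums, highest for the endothelial and lowest for the erythroid sum. The part of these markers in the differences between the cell types was not tested.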

How the data were processed

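Unnormalized whole-number counts of reads for each gene were deposited by the authors in 1 table of 10 libraries (5 luminal, 5 basal). The study describes adapter removal and alignment to mm10, and the submitters' processing notes list cutadapt 4.2 and Bowtie2 2.3.5.1. The counting tool, annotation and strand setting are not given in the sources used here. Groups follow the cell type label, which the sample titles contradict in all 10 libraries. Entrez identifiers were matched to RefSeq symbols (GRCm38.p6) for 24570 of 24594 genes.

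Genes were filtered with filterByExpr at its defaults (at least 10 counts in enough libraries and 15 in total). This kept 14609 genes and removed 9985. Cell types were compared with edgeR 4.0.16 (R 4.3.3) by the quasi-likelihood test with TMM factors. The study describes edgeR at default settings, and the test and the factors were chosen here. The model held cell type alone, with Benjamini-Hochberg adjustment over all genes tested. The SE was computed as the absolute log2 fold change over the root of the F statistic. Levels per kilobase use the exon union of GENCODE M21. The members, the further gene lists and the markers were chosen with earlier results of these data known. All members were accounted for. Values in every library were given for the largest called differences of each phase (up to 5 each way). They were also given for the 2 highest members and for members with an outlying library. Of other lists, the 3 largest called differences each way were named. Other values were chosen after they were seen.

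Libraries with the same replicate number also begin their description with the same number, taken here to be that of the animal, and were paired on this ground. Over all genes the correlation of their deviations from the cell type means was -0.13, 0.11, -0.07, 0.25 and 0.06 for replicates 1 to 5. All pairs of replicates differed by more than counting noise, and each library was counted once. The p-values measure the spread between these libraries. Alternatives were DESeq2 size factors, upper-quartile factors, library totals, no filter, at least 10 counts in every library, DESeq2 1.42.0, limma 3.58.1 voom, the replicate as a block, leaving out each library, and Ccna2 among the S genes. Leaving out both libraries of replicate 2, with and without the block, was chosen after seeing the data. No intervals were computed for counts; counting error was given as the coefficient of variation that counting alone would give.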

Additional observations from a re-analysis of the deposited data

Results flagged for a closer look

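In 12 of 88 groups of 5 libraries (42 genes in each cell type, and the sums of both phases), the highest or lowest library lay far from the others by Dixon's ratio. Independent and normally distributed values would give about 1 in 20, or 4.4. The CPM of low genes are skewed and the genes share the same libraries, so 12 cannot be read as an excess over chance. Of the 12, 7 were high values of replicate 2. In luminal replicate 2 they were Mki67 at 12.0 CPM, Ccnb2 at 6.58 CPM, Cdk1 at 6.43 CPM, Aurkb at 3.69 CPM, Bub1 at 2.32 CPM and the S gene Mcm3 at 7.06 CPM. In basal replicate 2 it was Nusap1 at 1.64 CPM. The luminal cells also held high values of Mcm4 in replicate 1 (21.95 CPM), Pcna in replicate 5 (39.3 CPM) and Aurka in replicate 4 (12.3 CPM), and a low value of Rrm1 in replicate 4 (5.73 CPM). In basal cells Kif11 was high in replicate 4 (18.4 CPM).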

How the results depend on the processing

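Over 721 fits of single genes under the alternatives, 631 were the same in direction and call, 50 lost a call, 7 gained one and 33 turned direction, all of the last in genes that were not called. With at least 10 counts in every library, 10 G2/M genes were tested, and 6 were higher in luminal cells and none in basal cells. Beside them, this filter left 12127 genes in all, with 4178 called luminal and 3706 called basal. Without both libraries of replicate 2 and with the replicate block, 6 G2/M genes and 1 S gene were higher in luminal cells. The count of all genes called in this fit is not given here, so these numbers describe the members alone. The lost calls included Cdc6 (log2 fold change 1.76, edgeR adjusted p = 0.0619), Ccnb2 (1.87, 0.0735), Cdc25c (0.58, 0.0788) and Nusap1 (1.44, 0.0675), with fewer libraries in the fit. With the replicate block alone, pairing the libraries of an animal, 9 G2/M genes and 2 S genes were higher in luminal cells. In basal cells 7 S genes were higher. Among all 14609 genes fitted with this block, 4740 were called luminal and 4539 basal. The alternatives other than leaving out 1 library include both fits with the block. Over them, 4178 to 5705 of all genes were higher in luminal and 3705 to 5089 in basal cells. The block changed the calls of Mcm5 and Cdc20 and of no other member. When 1 library was left out, 7 to 10 G2/M genes were called luminal and 0 basal, 2 to 3 S genes were called luminal and 5 to 7 basal, and medians ranged from 0.62 to 1.20 (G2/M) and from -0.53 to -0.41 (S). Over all genes the counts then ranged from 4625 to 5012 in luminal and from 4251 to 4612 in basal cells. With library totals they were 5705 and 3705, with 5 S genes called basal and an S median of -0.29. Over all alternatives other than leaving out 1 library, S calls ranged from 1 to 4 luminal and from 5 to 8 basal. Log2 fold changes that turned were those of Top2a (0.071 with upper-quartile factors, 0.15 with library totals, 0.55 with limma voom, 0.27 with the block and 0.27 with the block without replicate 2), Plk1 (0.045 with upper-quartile factors and 0.11 with library totals), Kif23 (-0.012 without a filter, -0.25 with limma voom, -0.053 with the block and -0.024 with the block without replicate 2) and Tpx2 (-0.023 without a filter, -0.022 without replicate 2 and -0.015 with the block without replicate 2). With 1 library left out, ranges that crossed 0 were -0.64 to 0.28 for Top2a, -0.23 to 0.040 for Plk1, -0.18 to 0.37 for Kif23, -0.26 to 0.28 for Tpx2, -0.043 to 0.12 for Mcm4, -0.052 to 0.29 for Kif20a, -0.36 to 1.27 for Cenpe and -0.26 to 1.37 for Mki67. The cause was not tested. Depth limited the low genes: 1 count was 0.053 to 0.077 CPM, and Ccne1, E2f8, Ccnb1, Aurkb and Bub1 were not tested for want of counts.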
